A study of Mus musculus with 2 samples.

Results

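Transcript levels of 53 Wnt ligands, receptors, antagonists and feedback regulators were compared between cultured pericytes kept in high and in normal glucose. The genes were taken by symbol from the 20887 genes that probes of the array named: symbols beginning with Wnt, Fzd, Sfrp, Dkk, Rspo or Nkd and a digit, together with Lrp5, Lrp6, Frzb, Wif1, Lef1, Tcf7, Axin2, Notum, Lgr4 and Lgr5. The cells were mouse cavernous primary pericytes of the C57BL/6 strain, taken from the penis and grown in medium with serum and pigment epithelium-derived factor (PEDF), which both conditions received. They were exposed for 72 h to high glucose, labelled 30 mmol, or to normal glucose, labelled 5 mmol, in each case without a stated volume. Each condition is 1 single-colour Agilent array, hybridised with RNA combined from 3 samples. No test and no replicate check is possible, and each difference given here is between these 2 pools. In pooled bulk RNA, fewer cells that express a gene and less of its RNA per cell cannot be told apart.

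Wnt proteins are secreted lipid-modified ligands that bind Frizzled receptors on the cell surface. With the co-receptors LRP5 and LRP6 they protect β-catenin from destruction, and β-catenin then works with LEF and TCF factors to switch on target genes, among them feedback inhibitors such as Axin2, Nkd1 and Notum. R-spondins, acting through LGR receptors, strengthen the response, while secreted frizzled-related proteins, Dickkopf proteins and WIF1 weaken it by binding ligands or co-receptors. Other ligands, such as Wnt5a and Wnt11, act largely without β-catenin, on cell polarity and movement. In small vessels Wnt signals take part in vessel growth and in the contact of pericytes with endothelium, and PEDF, present in both media, has been described as a ligand of LRP6 that dampens the pathway.

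The arrays shared a slide. Of 59305 gene spots, 57.6% were well above background on the high glucose array, against 56.3% on the normal glucose array. Of 12 pericyte markers 10 were well above background on both arrays, including Pdgfrb, Cspg4 and Mcam, while Kcnj8 and Vtn were not on either. The 6 smooth muscle and 6 fibroblast markers examined were also detected, so the markers do not separate pericytes from these relatives. Of 7 endothelial markers Kdr, Pecam1 and Vwf were detected and Cdh5, Tek, Cldn5 and Emcn were not. Unscaled signals of the detected markers were summed. The normal glucose array was the brighter, with a 75th percentile of 913 against 869. Pericyte markers summed to 109616 in high and 119436 in normal glucose. Smooth muscle markers came to 629981 in high and 651686 in normal glucose, and fibroblast markers to 305416 in high and 337213 in normal. Endothelial markers came to 7257 in high and 7578 in normal glucose, mostly from Kdr (7075 in high, 7379 in normal). After each array's 75th percentile was subtracted, median log2 ratios were -0.046 for pericyte, 0.05 for smooth muscle, -0.088 for fibroblast and 0.019 for endothelial markers. The 4 immune markers, all detected, summed to 2422 in high and 2311 in normal glucose. Of these Ptprc, Lyz2 and Adgre1 had log2 ratios of 0.20, 0.22 and 0.07 (for Ptprc -0.185 by median pixels), while Cd74, with 27.9 in high and 89.2 in normal glucose, had -1.60, or -0.59 by median pixels. The part of other cells in the Wnt values was not tested.

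Of the 53 genes, 40 were well above background on both arrays, 1 on the normal glucose array only and 12 on neither. The share measured, 75.5%, stood beside 67.9% for all named genes. No member differed by 2-fold between the pools, where 0.917% of the 14176 measured genes did, 0.501% higher and 0.416% lower in high glucose. At a smaller fold of 1.2, a log2 ratio of 0.26, 8 members differed, 2 higher and 6 lower in high glucose. Frzb and Fzd5 were the higher ones, and Wif1, Lef1, Fzd9, Nkd1, Wnt4 and Wnt16 the lower ones. Among all measured genes 12.3% differed by 1.2-fold, 6.8% higher and 5.51% lower, against 20.0% of the members, 5.0% higher and 15.0% lower. With each array centred on its median instead of its 75th percentile the split was 1 higher and 11 lower, and among all measured genes 5.02% were then higher and 8.41% lower.

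Signals below are processed signals, linear intensities from which the background has been subtracted, of the brightest probe of a gene. Each member's probe was printed once. A log2 ratio compares the arrays after the 75th percentile of each array's log2 signals was subtracted, so equal signals give a slightly positive ratio. The spread of a single spot was read from 283 probes printed 10 times and well above background. The SD of their log2 ratio had a median of 0.29 where the mean signal was below 128 and of 0.10 between 128 and 512. Between 512 and 4096 it was 0.044, and beyond 4096 it was 0.032. Each stretch of signal is called a band here. These SDs cover error within an array and not the spread between cultures. Signals of different probes depend on the probe and are not ranked against each other. For members past 1.2-fold the log2 ratio was also taken from the median pixel of the spot minus its local background, and set beside the ratio of nearby spots that were not well above background, called dim neighbours, relative to all such spots.

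**Figure D1:**
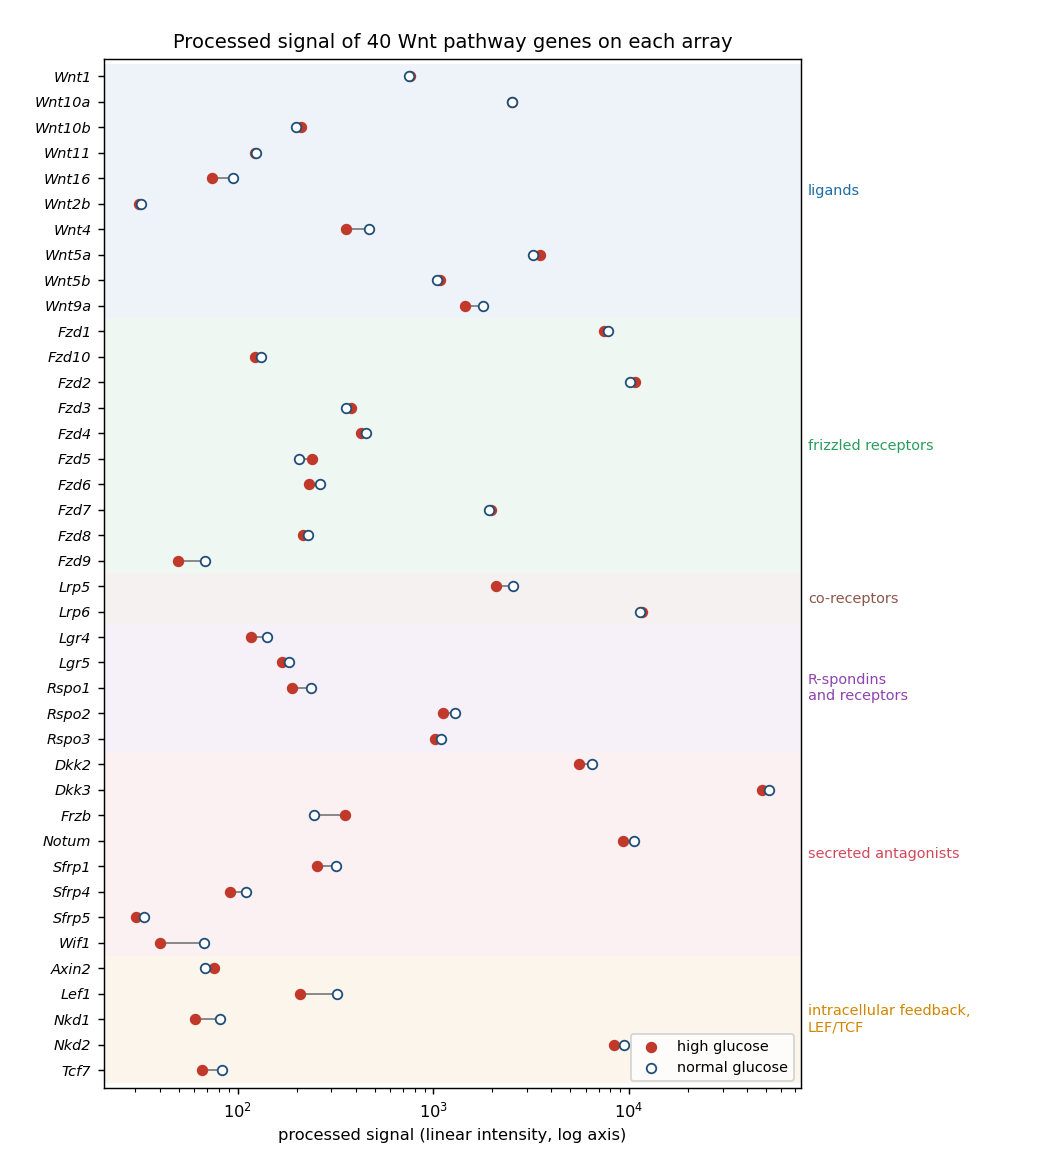
Processed signal (log axis) of the 40 measured genes on the high glucose array (filled red) and the normal glucose array (open blue), grouped by role; each point is 1 spot. Most pairs of points lie almost on each other, and the widest gaps are those of Wif1 (39.9 in high, 67.4 in normal glucose), Lef1 (209 in high, 322 in normal) and Frzb (351 in high, 247 in normal).

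Among the 40 measured members the largest differences were those of Wif1, Frzb and Lef1, an antagonist that binds ligands, a frizzled-related antagonist and a transcription factor. The 250 bases before their annotated starts are shown because transcription factors can bind there. LEF and TCF factors can bind DNA at the motif CTTTGA, and other forms of their motif were not searched. The sequences are from RefSeq on GRCm38.p6, in the direction of the gene, with CTTTGA on either strand in capitals (TCAAAG where it lies on the opposite strand). Lef1 has 4 annotated starts, of which the upstream one and the one farthest downstream are shown.
Wif1, chr10:121033754-121034003, plus strand: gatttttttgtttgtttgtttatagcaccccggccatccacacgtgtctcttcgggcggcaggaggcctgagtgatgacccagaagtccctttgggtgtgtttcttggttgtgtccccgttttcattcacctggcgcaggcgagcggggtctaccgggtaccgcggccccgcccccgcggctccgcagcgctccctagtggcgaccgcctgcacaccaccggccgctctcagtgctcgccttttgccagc
Frzb, chr2:80447397-80447646, minus strand: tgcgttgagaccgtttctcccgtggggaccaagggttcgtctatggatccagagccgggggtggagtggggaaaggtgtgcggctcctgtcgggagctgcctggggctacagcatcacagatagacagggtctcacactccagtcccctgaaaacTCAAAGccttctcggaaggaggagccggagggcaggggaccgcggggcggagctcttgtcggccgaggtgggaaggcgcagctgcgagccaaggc
Lef1, upstream start, chr3:131110047-131110296, plus strand: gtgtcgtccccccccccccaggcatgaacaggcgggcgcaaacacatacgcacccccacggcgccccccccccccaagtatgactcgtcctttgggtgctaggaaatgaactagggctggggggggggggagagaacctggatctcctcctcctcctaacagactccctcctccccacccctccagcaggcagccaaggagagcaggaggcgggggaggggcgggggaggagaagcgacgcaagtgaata
Lef1, downstream start, chr3:131156044-131156293, plus strand: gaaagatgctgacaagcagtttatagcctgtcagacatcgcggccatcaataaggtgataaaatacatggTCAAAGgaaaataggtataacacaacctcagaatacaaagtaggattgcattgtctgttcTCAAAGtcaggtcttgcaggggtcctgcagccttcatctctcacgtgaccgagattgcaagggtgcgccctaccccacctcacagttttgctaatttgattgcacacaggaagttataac
The Wif1 window held no CTTTGA and the Frzb window held 1. The downstream Lef1 window held 2, while the upstream one and the Lef1 windows not shown held none. Over the 42 windows of the 35 members with an entry, 6 (14.3%) held the motif on either strand, against 4544 of 32851 windows (13.8%) of all genes. The member windows with a match belonged to Frzb, Lef1, Fzd1, Wnt5b, Wnt11 and Dkk1. These are matches of letters in short windows and not measured binding.

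Of 19 Wnt ligands 10 were measured, and 7 had a log2 ratio above 0 and 3 below it, with a median of 0.06 (0.002 with median centring). Wnt5a, a ligand acting largely without β-catenin, had a signal of 3501 in high and 3223 in normal glucose, a log2 ratio of 0.20. This exceeded the spot SD of 0.044 for its signal band, and 11.2% of genes in that band differed by as much. Wnt5b, its close relative, had 1077 in high and 1046 in normal glucose (log2 ratio 0.12). Both Wnt5 genes were thus higher in high glucose by less than 1.2-fold. Wnt9a went the other way, with 1457 in high and 1782 in normal glucose and a log2 ratio of -0.21. Wnt9a is a ligand known from joint development.

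Wnt4, a ligand of kidney and gonad development, was 1.25-fold lower, with 355 in high and 470 in normal glucose (log2 ratio -0.32). Its other measured probe had 50.1 in high and 72.6 in normal glucose, a log2 ratio of -0.46. Both Wnt4 probes thus differed by at least 1.2-fold. In the band of the dimmer one the spot SD is 0.29, and 40.4% of genes differed by 1.2-fold. In the band of the brighter one 13.8% of genes differed by as much as it did. Median pixels gave -0.27 for that Wnt4 spot, and dim spots around it were shifted by 0.054. Wnt16, a ligand of bone and joint, was 1.21-fold lower, with 74.2 in high and 94.7 in normal glucose. Its other probe had 35.8 in high and 42.9 in normal glucose and a log2 ratio of -0.18. The log2 ratio of the Wnt16 main probe, -0.27, was smaller than the spot SD of 0.29 at this low signal. Median pixels gave -0.18 for it, and its dim neighbours were shifted by 0.17.

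The other measured ligands differed by less than 1.2-fold. Wnt10a, which acts in tooth, hair and skin, had 2517 in high and 2525 in normal glucose, and its relative Wnt10b, a bone-forming and anti-adipogenic ligand, 211 in high and 198 in normal glucose. Their log2 ratios were 0.08 and 0.18. Wnt1, the founding member of the family, had 756 in high and 751 in normal glucose by one probe (log2 ratio 0.09), while its other probe failed the background criterion on each array, with 8.11 in high and 5.93 in normal glucose. The probes of Wnt1 therefore disagree on whether the transcript was detected. Wnt11, a polarity ligand, had 122 in high and 125 in normal glucose, and Wnt2b 31.4 in high and 32.2 in normal glucose. The log2 ratios of Wnt11 and Wnt2b, 0.05 and 0.04, became -0.01 and -0.02 with median centring, so neither has a direction. Dim spots around the Wnt11 spot were shifted by -0.65 on the log2 scale; the part of this in its ratio was not tested.

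The 9 ligands not well above background on either array were Wnt2, Wnt3, Wnt3a, Wnt6, Wnt7a, Wnt7b, Wnt8a, Wnt8b and Wnt9b. Wnt3a and Wnt7b are among the best studied activators of β-catenin. With Rspo4, Dkk1 and Dkk4, which were also undetected, their signals lay between 4.77 and 11.2 in high glucose and between 5.35 and 14.5 in normal glucose. The lowest signal of a spot well above background was 24.0 on the high glucose array and 26.9 on the normal glucose array, so no fold is given for these 12 genes.

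**Figure D2:**
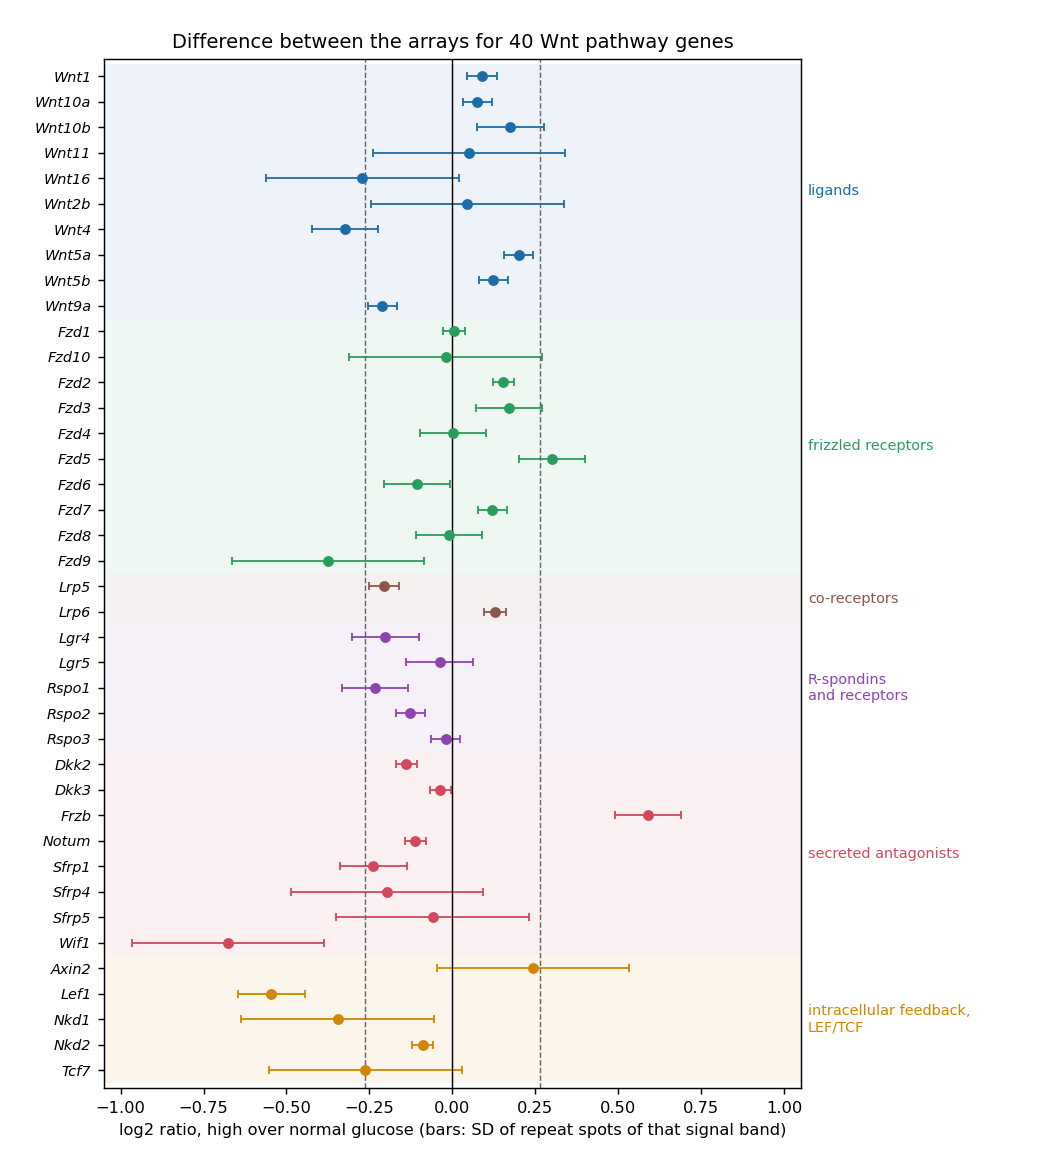
Log2 ratio of high over normal glucose for the 40 measured genes, grouped by role, with bars of 1 SD of repeat spots in the gene's signal band; dashed lines mark 1.2-fold. Frzb (0.59) lies farthest to the right and Wif1 (-0.68) and Lef1 (-0.55) farthest to the left, and the bars of dim genes such as Wnt16, Tcf7 and Axin2 reach across 0.

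All 10 Frizzled receptors on the array were measured, with a range of log2 ratios from -0.37 to 0.30 and a median of 0.0033, which became -0.058 with median centring. Fzd2 and Fzd7, receptors widely expressed in mesenchymal cells, were each read by a pair of probes that gave similar ratios. Fzd2 had 10654 in high and 10128 in normal glucose (log2 ratio 0.15), and its other probe had 570 in high and 534 in normal glucose (0.18). Fzd7 had 1977 in high and 1923 in normal glucose (log2 ratio 0.12), and its other probe had 702 in high and 696 in normal glucose (0.09). Both receptors were slightly higher in high glucose by each probe, and the ratios of the brighter probes exceeded the spot SDs of 0.032 and 0.044. Of genes in the same signal bands, 8.63% differed by as much as Fzd2 and 27.8% by as much as Fzd7.

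Fzd5, a receptor needed for the vessels of the placenta in mice, was 1.23-fold higher, with 240 in high and 206 in normal glucose. Its other measured probe had 56.8 in high and 59.0 in normal glucose, a log2 ratio of 0.02 against 0.30, so only the brighter probe of Fzd5 differed by 1.2-fold. Median pixels gave 0.25 for that Fzd5 spot, and its dim neighbours were shifted by -0.16. Fzd9 was 1.3-fold lower, with 49.7 in high and 68.1 in normal glucose, and the log2 ratio of -0.37 was 1.3 times the spot SD at this signal. In the Fzd9 band 26.6% of genes differed by as much. Median pixels gave -0.36 for Fzd9, its dim neighbours were shifted by 0.22, and it was read by 1 probe.

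The remaining receptors lay under 1.2-fold. Fzd4, the receptor of the ligand norrin in retinal vessels, had 427 in high and 451 in normal glucose, a log2 ratio of 0.0015. Fzd1 had 7416 in high and 7811 in normal glucose, a log2 ratio of 0.005. The ratios of Fzd1 and Fzd4 were -0.06 each with median centring, which shows no direction for either. Fzd3, a receptor of axon guidance and polarity, had 380 in high and 357 in normal glucose (0.17), and Fzd6, a receptor of hair and skin polarity, 232 in high and 264 in normal glucose (-0.11). Fzd8 had 214 in high and 228 in normal glucose (-0.0096), and Fzd10 had 123 in high and 131 in normal glucose (-0.021).

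The co-receptors went in opposite directions. Lrp6, needed for β-catenin signalling through most Wnt ligands, had 11689.5 in high and 11305.6 in normal glucose, a log2 ratio of 0.13. Its other probe had 432 in high and 441 in normal glucose, a log2 ratio of 0.05. Lrp5, known from bone mass and retinal vessels, had 2087 in high and 2545 in normal glucose, a log2 ratio of -0.21. The ratio of the main probe was 4.0 times the spot SD of its band for Lrp6 and 4.7 times for Lrp5, and 13.1% and 10.4% of genes in the bands of Lrp6 and Lrp5 differed by as much.

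The 5 measured R-spondins and R-spondin receptors among the members had ratios below 0, while Lgr6, a further R-spondin receptor outside the symbol rule, had a log2 ratio of 0.53. The median log2 ratio of the 5 was -0.13, beside -0.0073 for all measured genes. Of all measured genes 53.2% had a ratio below 0, or 72.7% with median centring. None of the 5 reached 1.2-fold with the main scaling. Rspo1, a ligand of ovary and gut development, had 190 in high and 236 in normal glucose (log2 ratio -0.23). Rspo2, which acts in limb, lung and muscle, had 1116 in high and 1288 in normal glucose (-0.13, or -0.03 by median pixels). Rspo3, a ligand required for vessel formation in mouse embryos, had 1023 in high and 1096 in normal glucose (-0.02). Lgr4, their widely expressed receptor, had 117 in high and 142 in normal glucose (-0.20), and Lgr5, a receptor and stem cell marker of the gut, had 167 in high and 182 in normal glucose (-0.039). Of these, Rspo1 and Rspo2 differed by more than 2 spot SDs with the main scaling.

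Among 8 measured secreted antagonists 7 had log2 ratios below 0 and Frzb had one above it. Of all measured genes 53.2% lay below 0, or 72.7% with median centring, which left the split of the antagonists the same. The antagonists' median log2 ratio was -0.13 with the main scaling. The 7 include Dkk3 and Sfrp5, whose ratios were 1.2 and 0.21 spot SDs from 0. Wif1, which binds Wnt ligands directly, was 1.60-fold lower, with 39.9 in high and 67.4 in normal glucose. The Wif1 log2 ratio of -0.68 was 2.4 times the spot SD, its median pixel ratio was -0.62, and 8.06% of genes in its band differed by as much. The dim spots around Wif1 were shifted by 0.22, against its direction. With background modelled by normexp and an offset of 50, which by itself shrinks ratios of dim spots, the Wif1 ratio was -0.30.

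Frzb, a secreted frizzled-related protein known from cartilage, was 1.51-fold higher, with 351 in high and 247 in normal glucose. Its log2 ratio of 0.59 was 5.8 times the spot SD, its median pixel ratio was 0.52, and 3.67% of genes in its band differed by as much. The 7 dim spots around the Frzb spot were shifted by 0.51 in the same direction, and their part in its ratio was not tested. Frzb, Wif1 and Lef1 were each read by 1 probe.

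Sfrp1, the best known member of the frizzled-related family, had 255 in high and 318 in normal glucose, a log2 ratio of -0.24. Sfrp4, known from bone and from adipose tissue, had 90.9 in high and 110 in normal glucose (-0.20), and Sfrp5 had 30.1 in high and 33.1 in normal glucose (-0.06). The ratio of Sfrp1 exceeded 2 spot SDs and those of the dimmer Sfrp4 and Sfrp5 did not exceed 1. Sfrp2 was well above background in normal glucose only, with 22.8 in high and 30.6 in normal glucose. Set against the lowest signal of a spot well above background in high glucose, 24.0, it was 1.21-fold lower. That signal is not a strict detection limit, since Celsr1, with 27.35 in high and 30.27 in normal glucose, was well above background on neither array. Frzb was thus the frizzled-related gene with a ratio above 0.

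Dkk2, an antagonist that binds LRP6, had 5553 in high and 6459 in normal glucose, a log2 ratio of -0.14. Dkk3, a divergent family member that does not act on LRP6 like its relatives, had 47866 in high and 51896 in normal glucose (-0.04, and 0.0002 by median pixels). Notum, an enzyme that removes the lipid from Wnt proteins and is itself a β-catenin target in several tissues, had 9313 in high and 10640.0 in normal glucose (-0.11, or -0.06 by median pixels). With the main scaling Dkk2 and Notum were lower by more than 3 spot SDs, while Dkk3 differed by 1.2 spot SDs.

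**Figure D3:**
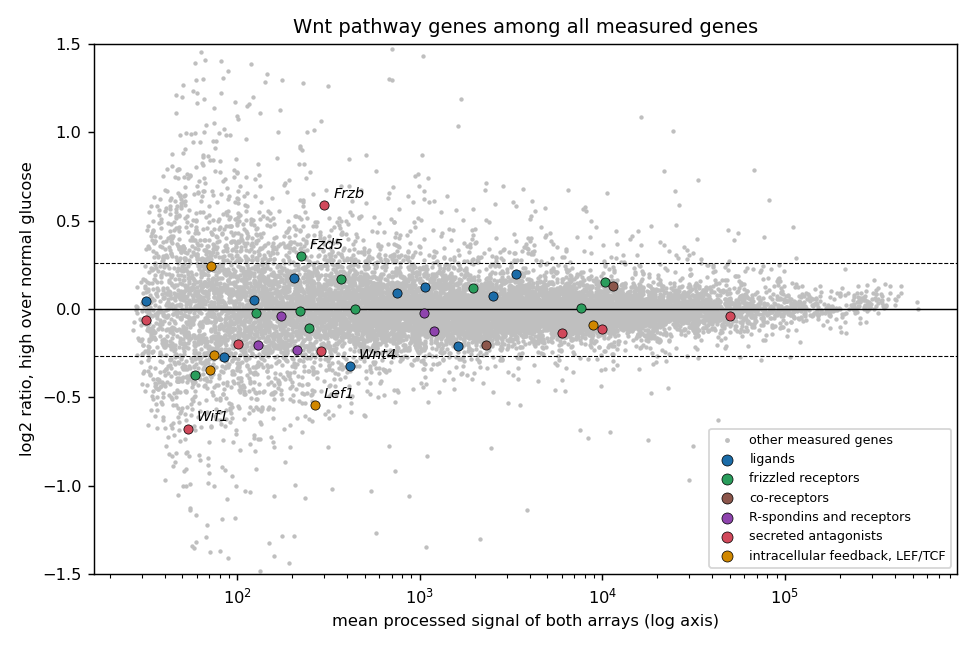
Log2 ratio of high over normal glucose against the mean processed signal of both arrays (log axis) for the 40 measured members, coloured by role, and all other measured genes (grey; 46 genes beyond 1.5 in either direction are not drawn). The cloud widens towards low signals, and Frzb and Lef1 lie near its upper and lower edges while Wif1 lies in the widest, dimmest stretch; dashed lines mark 1.2-fold.

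Of the 5 intracellular members, 4 had log2 ratios below 0, where 53.2% of all measured genes did (72.7% with median centring). Of these 4, Tcf7 and Nkd1 were 0.91 and 1.2 spot SDs from 0, and the probes of Nkd2 differed in direction. Lef1, a transcription factor that carries β-catenin to DNA and is itself a common target of the pathway, was 1.46-fold lower, with 209 in high and 322 in normal glucose. The Lef1 log2 ratio of -0.55 was 5.3 times the spot SD and the median pixel ratio was -0.51. Of genes in its signal band 4.36% differed by as much, and the dim spots around it were shifted by only -0.083. Tcf7, the related factor TCF1, had 65.6 in high and 83.2 in normal glucose and a log2 ratio of -0.26, just short of 1.2-fold. The member just past it was Wnt16, at -0.27.

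Nkd1, an inhibitor of Dishevelled induced by the pathway, was 1.27-fold lower, with 60.4 in high and 81.1 in normal glucose. Its log2 ratio of -0.35 was 1.2 times the spot SD, median pixels gave -0.33, and its dim neighbours were shifted by -0.049. Nkd2, its relative, had 8369 in high and 9415 in normal glucose, a log2 ratio of -0.09, and its other probe had 242 in high and 244 in normal glucose, a ratio of 0.07. Its ratio by the brighter probe was 2.8 times the spot SD, while median pixels gave -0.04 for that Nkd2 spot. Axin2, a scaffold of the destruction complex and the most widely used readout of β-catenin activity, had 76.0 in high and 67.8 in normal glucose, a log2 ratio of 0.24 that was smaller than the spot SD of 0.29. Axin2 went against Lef1, Tcf7 and Nkd1 in direction, and among these 4 genes the ratio of Lef1 alone exceeded 2 spot SDs. Axin2, Nkd1 and Tcf7 each had another probe that was above background on neither array.

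Of the 7 members with another measured probe, 6 had the same direction by both probes, and the 2 log2 ratios differed by a median of 0.09. Those with the same direction were Fzd2, Fzd5, Fzd7, Lrp6, Wnt4 and Wnt16. This holds for the main scaling. The other probes of Fzd5 and Lrp6 had ratios of 0.02 and 0.05, which is less than median centring takes off every ratio. Over the 40 members, 19 (47.5%) differed by at least 2 spot SDs of their signal band, 8 higher and 11 lower, against 34.1% of all measured genes. This count was made with the main scaling only and depends on it. With median centring Fzd7, Wnt5b and Wnt1 had log2 ratios of 0.059, 0.062 and 0.029, under 2 spot SDs. Dkk3 and Lgr4, at -0.098 and -0.263, then lay past 2 spot SDs. The median log2 ratio over the 40 members was -0.038, and 24 of them (60.0%) were below 0. With median centring 28 of the 40 (70.0%) and 72.7% of all measured genes were below 0.

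Many members gave dim signals: 24 of 40 (60.0%) had a mean signal below 512, against 32.4% of all measured genes. The 8 members at least 1.2-fold different were all among these 24. Below a signal of 128, 4 of 11 members differed by 1.2-fold, all lower, beside 40.4% of all genes in that band, 21.5% higher and 19.0% lower. From 128 to 512 the members counted 2 higher and 2 lower of 13, beside 9.81% higher and 9.16% lower among all genes. Above 512 no member of 16 reached 1.2-fold, where 6.26% of all genes from 512 to 4096 and 2.48% above 4096 did.

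**Figure D4:**
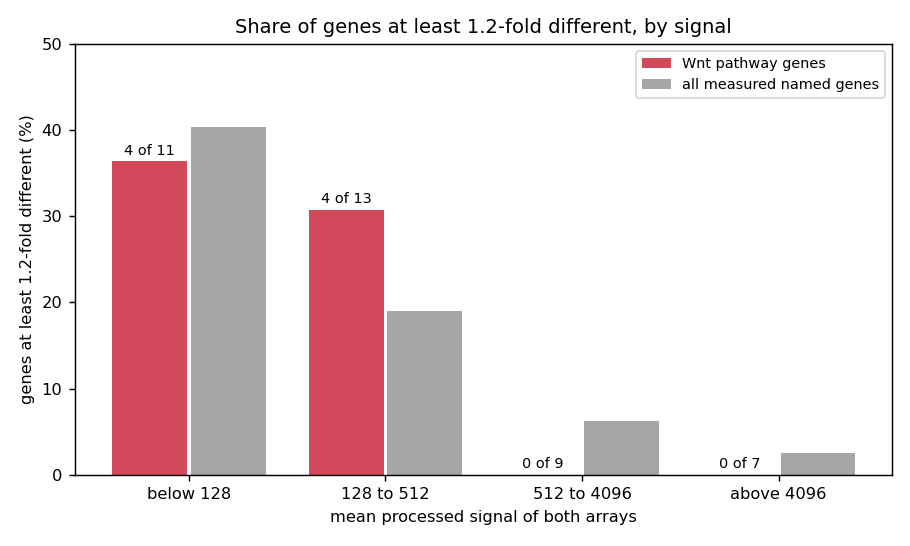
Percent of genes at least 1.2-fold different in either direction, for Wnt pathway genes (red, with counts) and all measured named genes (grey), by mean processed signal of both arrays. The share among all genes runs from 40.4% below a signal of 128 to 2.48% above 4096, and members reach 1.2-fold only in the 2 dimmer bands.

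Wider lists of the pathway were read in the same way. Of 31 genes of Wnt secretion, co-receptors and surface regulation 25 were measured. Their median log2 ratio was -0.073 and 19 were below 0, beside 53.2% of all measured genes, with the main scaling only. By 1.2-fold 3 were higher and 3 lower (24.0% in all), beside 12.3% of all measured genes. Most of these were dim. Lgr6, Celsr2 and Znrf3 had mean signals below 128, where 40.4% of all genes differed by 1.2-fold. Lrp4 and Apcdd1 lay from 128 to 512, where 19.0% did, and Ptk7 from 512 to 4096, where 6.26% did. Lrp4, a relative of LRP6 that presents the inhibitor sclerostin, had 163 in high and 242 in normal glucose, 1.40-fold lower. Lgr6, an R-spondin receptor known from skin stem cells, had 55.0 in high and 40.3 in normal glucose, 1.44-fold higher at a signal where the spot SD is 0.29. Ptk7 and Celsr2, surface proteins of cell polarity named after their values were seen, were each 1.26-fold higher. Ptk7 had 1751 in high and 1467 in normal glucose, and Celsr2 had 121 in high and 102 in normal glucose. The dim spots around Celsr2 were shifted by 0.90 in the same direction, and its log2 ratio of 0.33 stood beside a spot SD of 0.29. Wls, the carrier of Wnt proteins to the cell surface, had 21512 in high and 23136 in normal glucose (log2 ratio -0.025), and Porcn, the enzyme that adds the lipid, had 1106 in high and 1248 in normal glucose (-0.09, over 2 spot SDs). Ror2, a receptor for Wnt5a, had 1837 in high and 2000.3 in normal glucose (-0.04).

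The other genes lower by 1.2-fold were Apcdd1 and Znrf3, also named after their values were seen, inhibitors at the cell surface that the pathway is known to induce. Apcdd1 had 137 in high and 197 in normal glucose (log2 ratio -0.44), and Znrf3 42.9 in high and 55.3 in normal glucose (-0.28). The Apcdd1 ratio was over 4 times the spot SD of 0.10, and the Znrf3 ratio was under 1 spot SD. Sostdc1, an antagonist, was well above background in high glucose only, with 29.0 in high and 6.05 in normal glucose. It was 1.14-fold higher against the lowest signal of a spot well above background in normal glucose, which is not a strict limit.

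Of 39 intracellular components 36 were measured, with a median log2 ratio of 0.022, of which 3 were 1.2-fold higher and 1 lower. These 11.1% are near the 12.3% of all measured genes. Bcl9, a co-activator of β-catenin, had 711 in high and 555 in normal glucose, 1.35-fold higher (0.44), and its other probe gave 0.24. Tle3, a co-repressor that binds LEF and TCF factors, had 6183 in high and 5130 in normal glucose, 1.27-fold higher (0.35). Frat2, a GSK3-binding protein named after its values were seen, had 128.2 in high and 111.9 in normal glucose, 1.21-fold higher, and its other probe gave 0.25. The Frat2 log2 ratio of 0.28 was smaller than the spot SD of 0.29 at this signal. Gsk3b, the kinase that marks β-catenin for destruction, had 10454 in high and 13742 in normal glucose, 1.24-fold lower (-0.31). Its other probes gave log2 ratios of -0.08 and 0.11, so the Gsk3b probes disagree. Ctnnb1, which encodes β-catenin, had 19462 in high and 21815 in normal glucose (-0.08). Apc had 251 in high and 275 in normal glucose (-0.06) and Axin1 1213 in high and 1259 in normal glucose (0.03), both scaffolds of the destruction complex. Dact2, a regulator of Dishevelled, was well above background in normal glucose only, with 18.2 in high and 38.6 in normal glucose. It was 1.52-fold lower against the lowest signal of a spot well above background in high glucose.

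Of 16 target genes outside the members 14 were measured. Their median log2 ratio was -0.049, and 1 was 1.2-fold lower and none higher, 7.14% of the list beside 12.3% of all measured genes. That gene was Tnfrsf19, the receptor TROY, which was 1.5-fold lower with 61.9 in high and 98.2 in normal glucose (-0.58). The spot SD at this signal is 0.29. Sox9, a transcription factor of cartilage, had 1537 in high and 1422 in normal glucose (0.19). Myc had 2132 in high and 2309 in normal glucose (-0.04) and Ccnd1, which encodes cyclin D1, had 65162 in high and 71929 in normal glucose (-0.06). Both of these widely cited growth targets differed by under 1.1-fold.

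**Figure D5:**
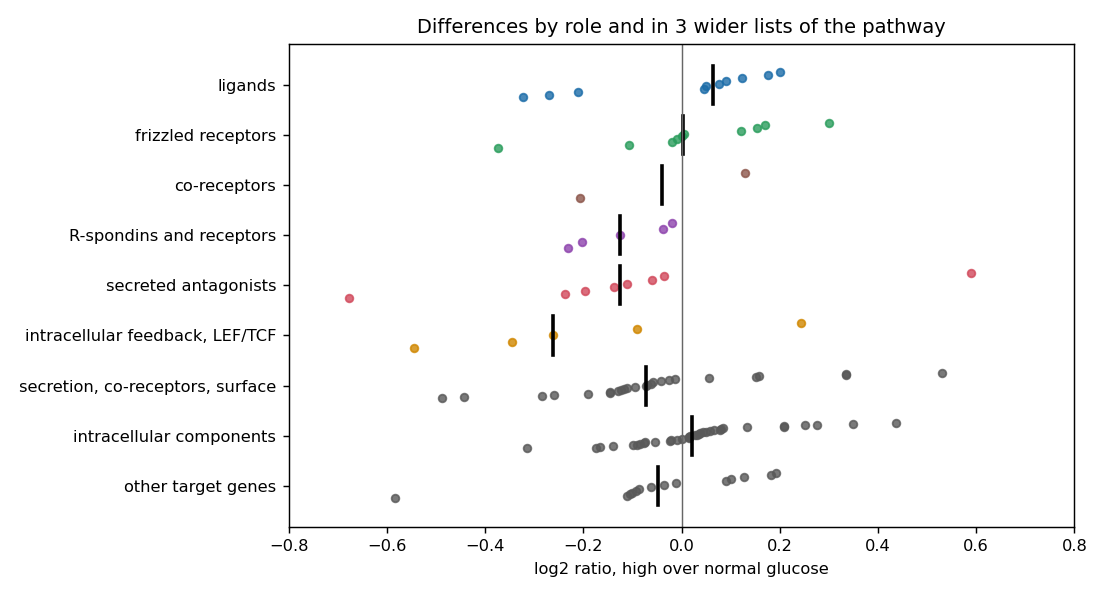
Log2 ratio of high over normal glucose of each measured gene (points) for the 6 roles and 3 wider lists, with the median of each as a black bar; points are spread vertically for legibility. Medians run from -0.26 for the intracellular feedback and LEF or TCF genes to 0.06 for the ligands, and no point passes 1 in either direction.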

How the data were processed

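What each spot's intensity is comes from Feature Extraction, version 11.5.1.1 per the file headers, while the submitters' processing notes give 9.3.2.1. The authors deposited its processed signal, a linear Cy3 intensity that per the file headers was background-subtracted and detrended within each array, with flags for spots well above background or saturated. Their deposited value table equals it within 0.0001 (relative) for 55249 of 55249 probes with 1 spot.

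Log2 processed signals were averaged over the spots of a probe, and each array's 75th percentile was subtracted (Python 3.11.15, pandas 2.3.3), without 3671 control spots. RefSeq accessions without versions named 27509 of 55681 probes through the GRCm38.p6 gene table; 28172 stayed unnamed. A gene was represented by its brightest probe. It counted as measured where at least 0.5 of that probe's spots were well above background, and none saturated, on both arrays. The fold of a gene detected on 1 array uses the lowest spot well above background on the other. It is approximate, since some spots with higher signals were not flagged as well above background. Neighbour shifts use dim spots within 2 rows and columns (at least 3 of them).

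With 1 array per condition no test was run, and this number limits the precision. Each measured member is named with both signals, and those past 1.2-fold also with other probes, median pixels and neighbours. From 3 wider lists the 2 largest differences of each are named, with 9 chosen genes over the lists together and, after their values were seen, the others past 1.2-fold or detected on 1 array. Members, lists and measures were chosen with earlier results of these data known. The counting was tested on simulated data at 2-fold only, so this says nothing of the 1.2-fold counts. Of the alternatives, 10 were run, among them normexp with limma 3.58.1 (R 4.3.3) on median pixels. Fzd10os matches the symbol rule and is not analysed here.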

Additional observations from a re-analysis of the deposited data

How the results depend on the processing

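The members' 2-fold count was 0, and 1 with no filter on dim probes, which was Wnt2 (5.17 in high and 14.5 in normal glucose, both below background). Of the 10 alternatives, those that changed another count or median by more than 1.5 times or the spot spread were as follows. The 1.2-fold count of 8 members (2 higher, 6 lower) was 3 (1 higher, 2 lower) with normexp and an offset of 50 on median pixels, chosen after seeing the data since the planned version on mean pixels was not run. It was 13, with 4 higher, without a filter on dim probes, and 0 (0 higher, 0 lower) among genes brighter than the median measured gene, where 12 members were left. Median centring gave 1 higher and 11 lower, and the median over measured probes and median pixels each gave 1 higher. Median centring moved the members' median log2 ratio to -0.0985, and those by role to 0.00209 for ligands, -0.0576 for Frizzled receptors, -0.0999 for co-receptors, -0.187 for R-spondins and their receptors, -0.186 for antagonists and -0.323 for intracellular members; the median of all genes moved to -0.068. The intracellular median was -0.135 with normexp and -0.09 among brighter genes, where the Frizzled median was 0.12. Over all genes the 2-fold count was 130, against 38 with normexp, 1272 without a filter and 6 among brighter genes, and 12.3% passed 1.2-fold, against 7.25%, 20.9% and 3.13%. The cause was not tested beyond the fewer genes and the offset. Over the 9 alternatives that kept these genes, Frzb, Lef1 and Wif1 were past 1.2-fold in all 9, Fzd9, Nkd1 and Wnt4 in 8, Wnt16 in 6 and Fzd5 in 5, with no change of direction. Some of the 9 could not move these ratios, so the counts overstate how far they were tried. The deposited table and the missing filter left each ratio as it was, and leaving out outlier spots hardly moved them. The median over measured probes cannot move a gene with 1 measured probe, such as Frzb, Lef1, Wif1, Fzd9 and Nkd1. No paired analysis was possible because each condition is 1 array. Signals near the background limit the rest: below 128 the spot SD is 0.29, more than the log2 of 1.2-fold, 0.26.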
